A study of Mus musculus with 6 samples.

Results

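The genes described here make, sense and break down prostaglandins, and they were measured on 6 Affymetrix arrays of cultured mouse heart cells. The members were the genes named Ptgs1, Ptgs2, Ptges, Ptgis, Ptgds, Ptger1, Ptger2, Ptger4, Ptgfr and Hpgd in the platform's probe annotation, 10 symbols in all. Of these, 9 were matched, each to 1 probe set, among 19505 named genes, and Ptgs1 was not analysed here. The cultures were cardiac fibroblasts (CF), which lay down matrix, and cardiomyocytes (CM), which contract. Each was given PBS (phosphate-buffered saline) or the secretome of Ccrl2+ or Ccrl2- macrophages for 48 h. These macrophages came by cell sorting from the hearts of 6 wild-type mice, mixed, 1 week after TAC (transverse aortic constriction, which narrows the aorta and loads the heart). All groups were labelled as C57BL/6N mice of 15 to 16 weeks. The titles call the PBS arrays sham, and the protocols speak of co-culture with macrophages where the source labels name their secretome; the source labels were followed. With 1 array in each of the 6 groups, differences could not be checked against replicates or tested, and the few arrays limit the precision of every value.

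Prostaglandins are lipid signals made from arachidonic acid, which phospholipases release from membranes. The cyclooxygenases, encoded by Ptgs1 and Ptgs2, turn it into prostaglandin H2, and a set of terminal synthases turns that intermediate into prostaglandin E2 (Ptges), prostacyclin (Ptgis), prostaglandin D2 (Ptgds) and others. Ptgs2 and Ptges are the inducible enzymes of the pathway in inflamed tissue. The products act on G-protein-coupled receptors of neighbouring cells, and 15-hydroxyprostaglandin dehydrogenase (Hpgd) starts their breakdown.

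The promoters of Ptgs2 and Ptges are shown because these genes were the members that stood far higher in a secretome array. RefSeq's promoter table of build GRCm38.p6 held 7 of the 9 measured members. Each window runs from 250 bases before the annotated start to 50 bases from it on, 5′ to 3′ on the gene's strand, with positions counted from 1 at the 5′ end. Capitals mark matches to 9 patterns searched on both strands. All motifs were chosen after the values were seen. NF-kB was searched in a pair of shortened forms, and the outcome depends on which end is trimmed. The first form was GGGNNTTNC. The second form was GGNNTTNCC. The C/EBP motif was searched as TTNNGNAA. The core of the cAMP response element (CRE) was searched as TGACG. The AP-1 motif was searched as TGANTCA. An E-box was searched as CACGTG, and the SP1 motif as GGGCGG. A glucocorticoid receptor palindrome was searched as ACANNNTGT. The TATA box was searched as TATAAA. The Ptgs2 window lies at chr1:150099781-150100080 on the plus strand and the Ptges window at chr2:30903248-30903547 on the minus strand.
Ptgs2: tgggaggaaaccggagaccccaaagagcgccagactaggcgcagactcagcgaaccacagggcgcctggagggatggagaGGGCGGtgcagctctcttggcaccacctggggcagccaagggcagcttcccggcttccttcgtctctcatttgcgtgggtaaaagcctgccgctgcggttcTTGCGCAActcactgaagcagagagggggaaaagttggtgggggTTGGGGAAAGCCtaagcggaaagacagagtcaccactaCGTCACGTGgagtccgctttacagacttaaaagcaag
Ptges: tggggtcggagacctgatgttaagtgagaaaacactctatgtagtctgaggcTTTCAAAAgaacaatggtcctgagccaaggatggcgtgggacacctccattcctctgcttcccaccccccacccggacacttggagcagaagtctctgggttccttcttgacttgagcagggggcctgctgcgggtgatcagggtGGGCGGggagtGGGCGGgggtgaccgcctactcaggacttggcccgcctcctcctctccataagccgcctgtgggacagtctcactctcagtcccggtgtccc
The Ptgs2 window held 2 C/EBP matches, at bases 182 to 189 and 226 to 233, and 1 SP1 match. It also held a CRE core at bases 264 to 268 that overlaps the E-box at bases 267 to 272. These lie in the last 50 bases, after the annotated start. Whether transcription begins at that start in these cells was not tested, so the window may be offset from the promoter in use. The Ptges window held 1 C/EBP match and 2 SP1 matches. The windows of these genes thus had C/EBP and SP1 letters in common, which 40.7% and 35.7% of the 32851 promoters in the table also held. These letters were not particular to Ptgs2 and Ptges among the members. Hpgd and Ptgfr also held both motifs, Ptgds and Ptger2 held C/EBP, and Ptger4 held SP1. The CRE core occurred in 20.8% of promoters and the E-box in 7.15%. The first NF-kB form was in 15.2% of all promoters and in neither window, which says only that these letters are not in these 300 bases. The second form was in 16.0% of promoters and had 1 match in the Ptgs2 window, on the antisense strand at bases 229 to 237, overlapping a C/EBP match. It had none in the Ptges window. That form was kept because only it matched Ptgs2, so its match there is no independent finding. Of the other motifs, AP-1 was in 7.81% of promoters, the glucocorticoid receptor palindrome in 6.85% and the TATA box in 13.6%, with no match in either window.

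Values are on the log2 scale, so a difference of 1 stands for 2-fold. A gene was counted as higher or lower when its larger value of a pair was 6.55 or more (the floor, set at the median over named genes and arrays) and the difference as measured reached 2-fold. Where the smaller value lay below the floor, the difference from the floor is given as a lower bound ("at least"). Levels of different genes come from different probes and are not set against each other. The medians of the 6 arrays lay between 6.5 and 6.59. The 5222 negative control probe sets had array medians of 6.2 to 6.71, so a value around the floor cannot be told from background. Their 95th percentile was 10.2 to 10.74 by array, so the controls also spread well above the floor. Ptger4, Ptger1 and Ptgfr lay below that percentile on all 6 arrays. Hpgd did on the CM arrays, and Ptgis on the CM PBS and CM Ccrl2+ arrays. Pairs of CM arrays correlated across genes, which are not independent replicates, at 0.995 to 0.997 (Pearson), pairs of CF arrays at 0.973 to 0.986, and CF against CM pairs at 0.937 to 0.953. Of the 9 members, 2 (Ptgis and Hpgd) reached the floor on all 6 arrays, 6 on some arrays, and Ptger2 on none.

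**Figure D1:**
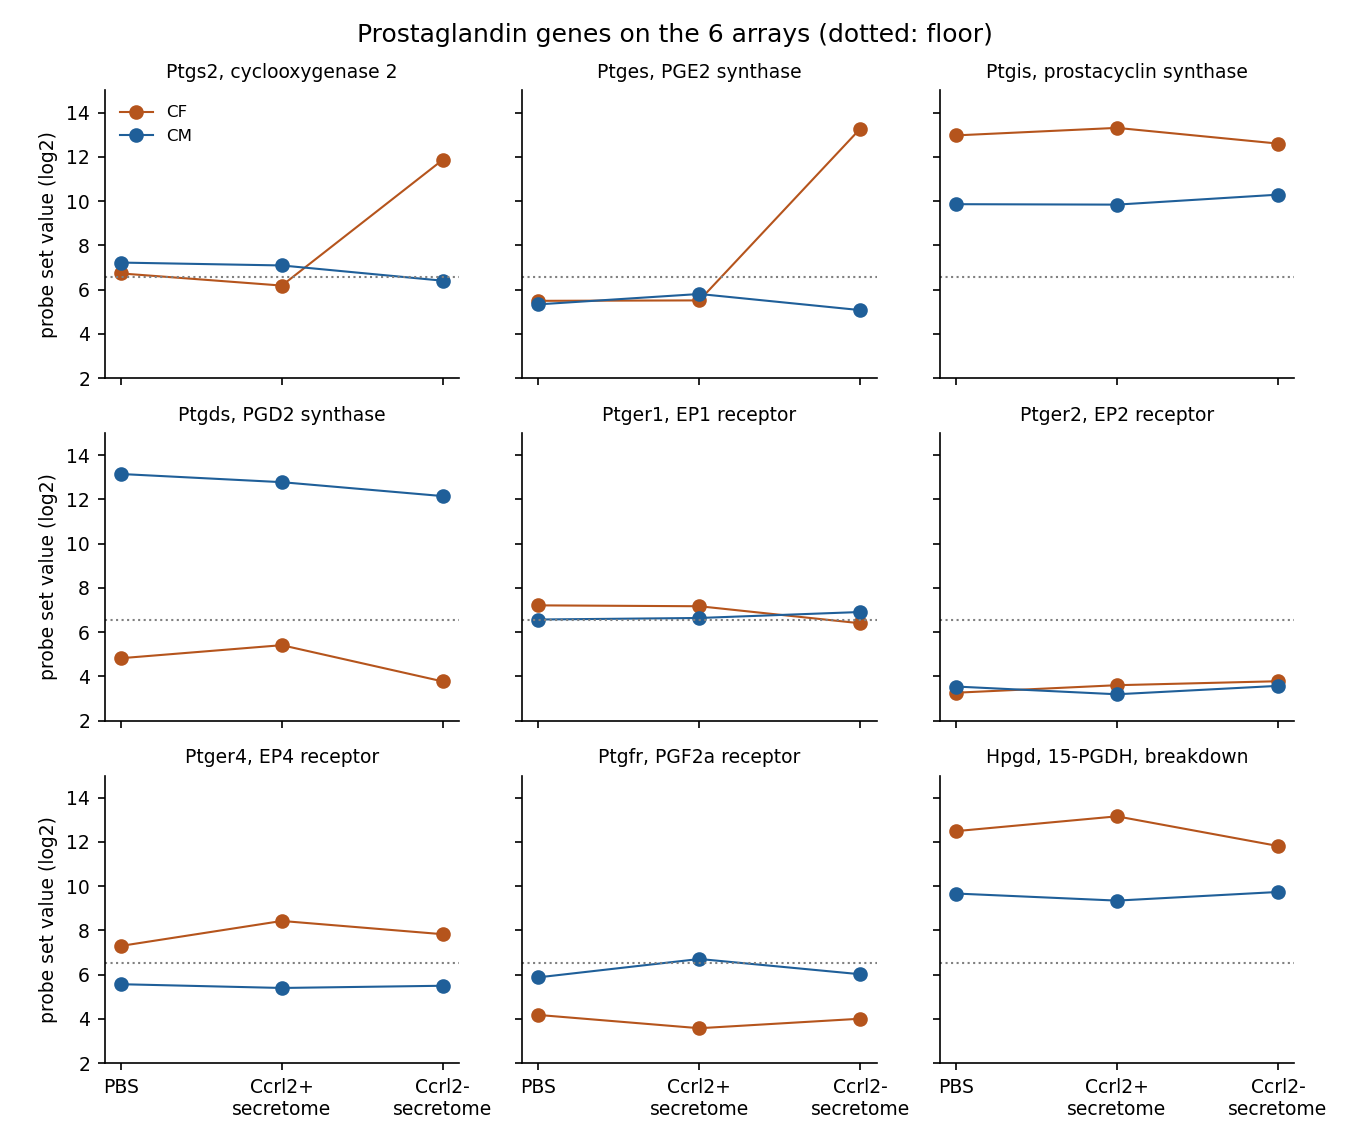
Log2 probe set value (y axis) of the 9 measured prostaglandin genes in PBS, Ccrl2+ secretome and Ccrl2- secretome (x axis), with 1 array per point; lines join the points of a culture and the dotted line is the floor of 6.55. Ptgs2 and Ptges stand high on the CF Ccrl2- array alone (11.87 and 13.28), Ptgds is high on the CM arrays (12.15 to 13.15), and Ptgis and Hpgd are higher on the CF arrays.

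In fibroblasts, the array labelled Ccrl2- secretome carried far more transcript of the inducible enzymes of prostaglandin E2 synthesis than the other fibroblast arrays. Ptgs2, cyclooxygenase 2, lay at 6.73 in PBS, 6.18 with the Ccrl2+ secretome and 11.87 with the Ccrl2- secretome. The Ccrl2- array was the one high array, and the others lay within 0.55 of each other and near the floor. The difference from PBS as measured was 5.14, or 35.3-fold. The PBS value lies close to that array's negative control median of 6.69, so the fold is best read as a lower bound. Ptges, the microsomal prostaglandin E synthase that acts after cyclooxygenase 2, lay at 5.49, 5.51 and 13.28 in the same order. Both lower values were below the floor, so Ptges was at least 6.73 higher than in PBS, or at least 106.2-fold. Among the 10057 genes past the floor in this comparison, 51 genes, Ptgs2 included, were higher by as much as Ptgs2 and 16, Ptges included, by as much as Ptges, with all differences taken as measured (7.79 for Ptges). Of the 2995 negative controls past the floor, 2 had a difference as high as that of Ptgs2 and 0 one as high as that of Ptges (the highest was 6.03).

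The remaining members differed far less. Ptgis, prostacyclin synthase, lay at 12.97 in PBS, 13.31 with Ccrl2+ and 12.6 with Ccrl2-. Hpgd, the breakdown enzyme, lay at 12.49, 13.16 and 11.82. Both genes were thus highest with the Ccrl2+ secretome and lowest with the Ccrl2- secretome, by 0.71 for Ptgis and 1.34 for Hpgd. Ptger4, the EP4 receptor for prostaglandin E2, which couples to cAMP production, lay at 7.3, 8.43 and 7.83 and was lowest in PBS. Ptger1, the EP1 receptor, lay at 7.21, 7.17 and 6.4, all within 0.81. Ptgds, Ptgfr (the prostaglandin F receptor) and Ptger2 (the EP2 receptor) lay below the floor on all 3 fibroblast arrays, at 3.77 to 5.41, 3.58 to 4.18 and 3.26 to 3.78.

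For the Ccrl2- secretome over PBS, 6 members passed the floor. Ptgs2 and Ptges, 2 of the 6, were called higher and 0 were called lower. Ptges passed the floor on the Ccrl2- array alone, so it could only be called higher. Over all genes past the floor 11.0% were called, 6.18% higher and 4.83% lower. The median difference was 0.08 for the members past the floor and -0.09 for all genes past it. For the Ccrl2+ secretome over PBS, 1 of 5 members past the floor was called higher, Ptger4 by 1.13, and 0 were called lower, against 4.87% and 6.13% of all genes (11.0% in either direction). That difference is small beside the background, since 19.7% of negative controls past the floor were 2-fold or more apart in this comparison and 191 of them were higher by as much as Ptger4. These comparisons share the PBS array. Spike-in transcripts were also higher on the Ccrl2+ array than in PBS, by a median of 0.605 for the poly-A and 0.305 for the hybridisation spike-ins. Their part in the Ptger4 difference and in other differences of this comparison was not tested.

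The secretomes were also set against each other. With Ccrl2+ instead of Ccrl2-, Ptgs2 was at least 5.32 lower, Ptges at least 6.73 lower and Hpgd 1.34 higher, or 2.53-fold. On the Ccrl2+ array Ptgs2 and Ptges transcripts were thus lower and the Hpgd transcript higher, while enzyme levels were not measured. Of 6 members past the floor 1 was at least 2-fold higher and 2 lower, against 8.55% and 10.1% of all genes (18.6% in either direction). The other members past the floor were Ptgis (0.71), Ptger1 (0.77) and Ptger4 (0.6), each below 2-fold. Of the negative controls 19.0% differed by at least 2-fold, 103 of them higher by as much as Hpgd. The 4 poly-A spike-in transcripts, which are added to the RNA before labelling, were higher on the Ccrl2+ array by a median of 0.89. Their part in the Hpgd difference was not tested.

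**Figure D2:**
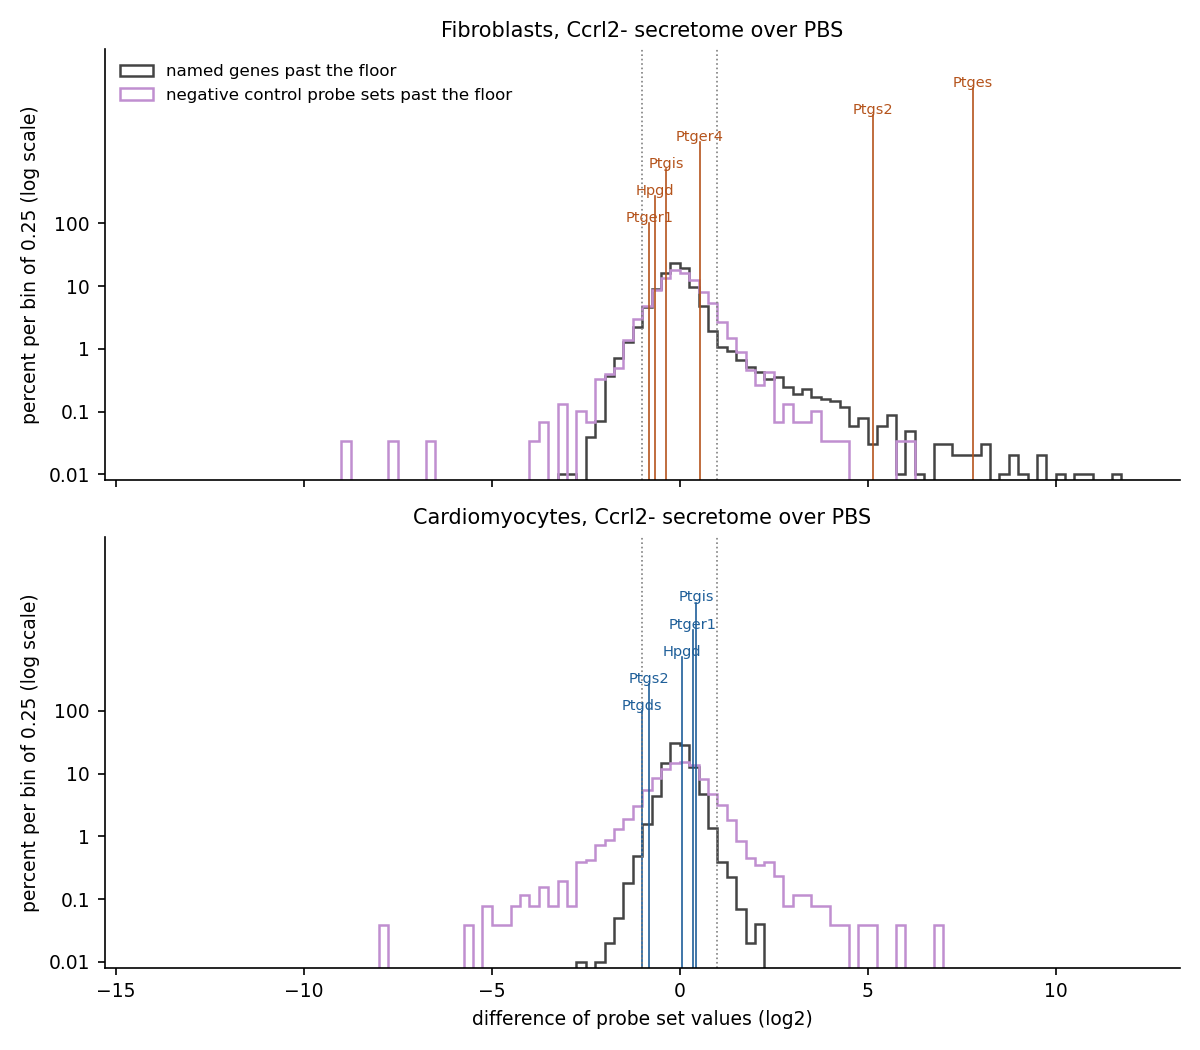
Difference between the Ccrl2- secretome and PBS arrays (x axis, log2) in fibroblasts (top) and cardiomyocytes (bottom), as the percentage of named genes, or of negative controls, past the floor in bins of 0.25 (y axis, log scale). Vertical lines mark the members past the floor and dotted lines 2-fold; line heights carry no value. In fibroblasts Ptgs2 (5.14) and Ptges (7.79 as measured, at least 6.73) lie in the upper tail, and in cardiomyocytes Ptgds lies at -1.0.

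Markers of other cells that make prostaglandins were read on the same fibroblast arrays. Of 11 macrophage markers measured, 10 passed the floor for the Ccrl2- secretome over PBS. Of these, 3 were at least 2-fold higher and 5 lower, against 6.18% and 4.83% of all genes. The summed level of all 11, the log2 of the summed linear values, was 14.61 in PBS, 15.24 with Ccrl2+ and 14.58 with Ccrl2-. Ptprc, the pan-leukocyte marker, lay at 9.06, 9.18 and 9.17, and Lyz2, lysozyme, at 12.52, 13.47 and 13.84. All 7 neutrophil markers measured, S100a8 and S100a9 among them, lay below the floor on all 6 arrays, and 6 of 8 mast cell markers did, Cpa3 and Tpsb2 among them. The other mast cell markers were Kit and Mcpt4. Kit lay at 8.8 in PBS, 6.28 with Ccrl2+ and 7.96 with Ccrl2-, and at 8.71 to 8.88 on the CM arrays. Mcpt4 passed the floor on the CM arrays alone. Which cells of the culture carried Ptgs2 and Ptges was not tested. In bulk samples, more cells of a type and more RNA per cell cannot be told apart.

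The fibroblast label itself was borne by Col1a1, at 15.69 to 16.63 on the CF arrays and 10.07 to 11.3 on the CM arrays. The summed level of 7 mesothelial and epicardial markers was 15.19 in PBS, 16.08 with Ccrl2+ and 14.39 with Ccrl2-, and that of 8 cardiomyocyte markers 17.13, 18.04 and 16.57. Ptgis and Hpgd stood in the same order as these sums. Upk3b, a mesothelial marker, lay at 14.04, 14.3 and 13.24, and Msln, Upk1b and Lrrn4 shared this order. Wt1 (8.22, 8.1 and 7.87) and Bnc1 were highest in PBS, and Krt19 was lowest with Ccrl2+. Of the cardiomyocyte markers, Myh6 (9.63, 11.13 and 9.65), Myoz2 and Ryr2 (below the floor) were lowest in PBS. The other cardiomyocyte markers had the order of the sums. The part of these cells in the Ptgis and Hpgd values was not tested.

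In cardiomyocytes the members differed little between arrays. Ptgds, which encodes lipocalin-type prostaglandin D synthase, lay at 13.15 in PBS, 12.78 with the Ccrl2+ secretome and 12.15 with the Ccrl2- secretome. PBS was the highest array and Ccrl2- the lowest. The difference of -1.0 for Ccrl2- over PBS was exactly 2-fold in the deposited values, which have 2 decimals. Among genes past the floor 79 of 10054 were lower by as much, and so were 255 of 2610 negative controls. Ptgds was the member called of 5 past the floor, with 0 higher, against 0.746% of genes higher and 0.786% lower (1.53% in either direction). With a loess trend removed the count was 0, because the value sits on the threshold.

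Ptgs2 lay at 7.22 in PBS, 7.09 with Ccrl2+ and 6.4 with Ccrl2- in cardiomyocytes. These values are all close to the floor and lay within 0.82 of each other. Ptges lay below the floor on all 3 CM arrays, at 5.33, 5.8 and 5.07. The high levels seen on the CF Ccrl2- array thus had no counterpart on the CM array given the same secretome. Whether the cultures differ in their response was not tested, since each had 1 array per condition.

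Ptgis lay at 9.86, 9.84 and 10.29 in cardiomyocytes and Hpgd at 9.67, 9.35 and 9.74, in the order PBS, Ccrl2+ and Ccrl2-. Both stayed within 0.45 of their lowest value. Ptgfr lay at 5.88, 6.71 and 6.02, past the floor on the Ccrl2+ array alone and at least 0.16 higher there. Ptger4 (5.4 to 5.57) and Ptger2 (3.19 to 3.57) lay below the floor, and Ptger1 lay at 6.57 to 6.91. For Ccrl2+ over PBS 0 of 6 members past the floor were called, against 0.839% of all genes (0.21% higher and 0.629% lower). For Ccrl2+ over Ccrl2- 0 of 6 were called, against 0.31% (0.13% higher and 0.18% lower). Of the 7 fibroblast markers measured, 4 were called higher with Ccrl2- than in PBS on the CM arrays, against 0.746% of all genes. They were Col1a1 (11.3 against 10.13), Col1a2 (12.28 against 10.91), Col3a1 (10.93 against 8.78) and Tcf21 (7.52 against 6.2). The summed level of all 7 was 15.83 in PBS, 16.04 with Ccrl2+ and 16.3 with Ccrl2-. Cardiomyocyte markers summed to 20.2, 20.16 and 19.97. The part of these levels in the Ptgis and Ptgds values was not tested.

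Ptgis, Hpgd and Ptger4 were higher in fibroblasts and Ptgds in cardiomyocytes. In PBS, 3 of 6 members past the floor were called higher in CF than in CM and 1 was called lower, against 13.9% and 16.9% of all genes (30.8% in either direction). Ptgis was 3.11 higher in CF (12.97 against 9.86), or 8.63-fold, and Hpgd 2.82 higher (12.49 against 9.67), or 7.06-fold. Ptger4 was called on its difference as measured (7.3 against 5.57), and was at least 0.75 higher. Ptgds was at least 6.6 lower in CF (4.82 against 13.15), or at least 97.0-fold. Of the 10394 genes past the floor 19, Ptgds included, were lower in CF by as much as Ptgds as measured, and 0 negative controls were. For Ptgis 13 negative controls and for Hpgd 29 were as much higher, and 30.6% of controls past the floor were 2-fold or more apart.

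These orders held on the secretome arrays. The lowest CF value of Ptgis (12.6) was above the highest CM value (10.29), and the same was true of Hpgd (11.82 against 9.74) and Ptger4 (7.3 against 5.57). For Ptgds the lowest CM value (12.15) was above the highest CF value (5.41), and for Ptgfr 5.88 was above 4.18, although both of these Ptgfr values lie below the floor. Of 8 members that reached the floor on some array, 3 were thus higher on all 3 CF arrays than on all 3 CM arrays and 2 were lower, 1 of them Ptgfr, which reached the floor on 1 array. Of all 10779 such genes 25.5% were higher and 28.5% lower without overlap (54.0% in either direction), so this share of members is close to the background. Ptgs2, Ptges and Ptger1 overlapped between the cultures.

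The CM arrays also carried endothelial transcripts, with a summed level of 17.22 to 17.31 for 9 markers against 11.92 to 12.59 on the CF arrays. Pecam1, an endothelial adhesion molecule, lay at 13.87 to 14.11 and 8.03 to 8.55. The 8 cardiomyocyte markers summed to 19.97 to 20.2 in CM and 16.57 to 18.04 in CF, and Myh6, the cardiac myosin heavy chain gene, lay at 17.26 to 17.32 and 9.63 to 11.13. Both lists move with Ptgds between the cultures, and their part in its level was not tested.

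Genes with the most similar pattern were named for the 3 members with the widest range over the 6 arrays. The measure was the root mean square distance between values centred on each gene's mean over the 6 arrays, among 10779 genes that reached the floor on some array. Nearest to Ptges was Il1b, interleukin 1 beta (distance 0.25), followed by Ptx3 (0.37), Tgtp2 (0.41), Gbp2 (0.43) and Cfb (0.44). Il1b lay at 12.72 on the CF Ccrl2- array and at 4.54 to 4.78 on the others. Nearest to Ptgs2 was Lif (0.21), followed by Gsap (0.32), Marco (0.35), Tlr2 (0.35) and Ier3 (0.41). Lif, a cytokine gene of the interleukin 6 family, lay at 10.44 on the CF Ccrl2- array and at 4.92 to 6.39 on the others. Nearest to Ptgds were Pln (0.28), Des (0.32), Clic5 (0.32), Nebl (0.34) and Mlip (0.39). Pln, phospholamban, lay at 16.05 to 16.21 in CM and at 7.19 to 8.64 in CF.

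Among the members themselves, Ptgis and Hpgd had the most similar patterns, with a distance of 0.22. Only 4 of the other genes were nearer to Ptgis than Hpgd was. Ptgs2 and Ptges lay 1.06 apart, and 128 genes were nearer to Ptgs2 than Ptges was. Both were highest on the CF Ccrl2- array, but by unlike amounts over PBS (5.14 and 7.79 as measured). The distances were not scaled, so they take in the size of a difference, and values below the floor were used as measured. With 6 arrays from as many conditions these distances describe the arrays and carry no test.

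**Figure D3:**
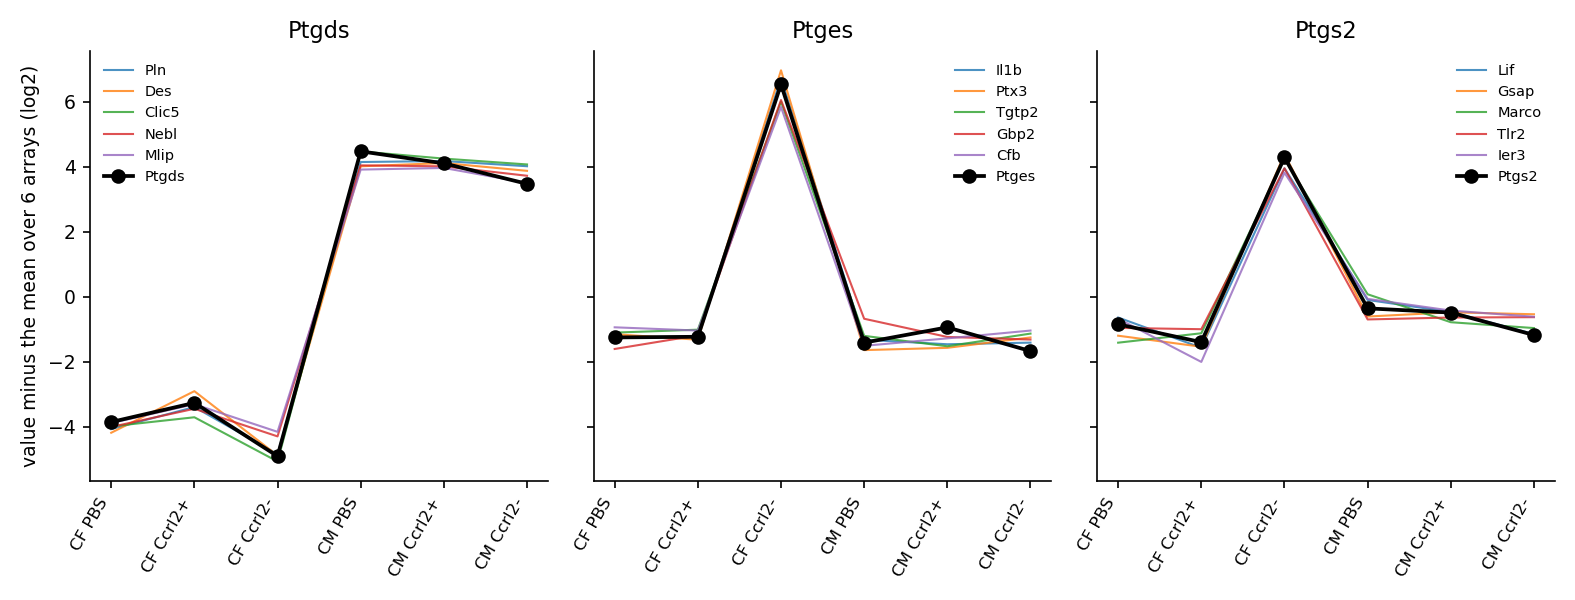
Value minus the gene's mean over the 6 arrays (y axis, log2) for Ptgds, Ptges and Ptgs2 (black) and the 5 nearest genes of each (coloured), by array (x axis); lines join the values of a gene. Ptges and Ptgs2 and their nearest genes peak on the CF Ccrl2- array, and Ptgds and its nearest genes are high on the 3 CM arrays.

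The rest of the pathway was read from lists of 76 genes, of which 70 were measured. In fibroblasts with the Ccrl2- secretome, 7 of 47 past the floor were called higher than in PBS and 7 lower, and their median difference was -0.15. With the Ccrl2+ secretome 10 of 47 were called higher and 1 lower, and the median was 0.16. These counts can be read against 6.18% and 4.83% of all genes for Ccrl2- and 4.87% and 6.13% for Ccrl2+.

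Some genes of the list for arachidonic acid supply and its control stood apart on 1 of the fibroblast arrays. Pla2g4a, cytosolic phospholipase A2, which releases arachidonic acid from membranes, lay at 9.97 in PBS, 10.35 with Ccrl2+ and 12.02 with Ccrl2-. It was 2.05 higher than PBS on the array where Ptgs2 and Ptges were high. Pla2g7, which encodes platelet-activating factor acetylhydrolase, lay at 6.34, 10.35 and 7.9 and was at least 3.8 higher with Ccrl2+. Plaat3, a membrane phospholipase, lay at 9.35, 7.46 and 10.34, lowest with Ccrl2+. Anxa1, annexin A1, a glucocorticoid-induced protein known to restrain phospholipase A2, lay at 15.69, 16.88 and 16.0. Of 11 genes of this list past the floor 2 were higher and 0 lower with Ccrl2-, against 6.18% and 4.83% of all genes. Of 12 with Ccrl2+ 2 were higher and 1 lower, against 4.87% and 6.13%. With Ccrl2+ set against Ccrl2-, 1 of 12 was higher and 3 were lower, against 8.55% and 10.1% of all genes.

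The other terminal synthases did not show the difference seen for Ptges. Hpgds, the hematopoietic prostaglandin D synthase, lay at 11.16 in PBS, 11.37 with Ccrl2+ and 9.99 with Ccrl2-, and Tbxas1, thromboxane synthase, at 8.24, 9.07 and 6.8. Cbr2, a carbonyl reductase, lay at 7.92, 11.44 and 6.7. All 3 were lowest with Ccrl2- and highest with Ccrl2+. Of 9 genes of this list past the floor 0 were higher and 3 lower with Ccrl2-, against 6.18% and 4.83% of all genes. Ptges3, the cytosolic prostaglandin E synthase and Hsp90 co-chaperone, lay at 10.63, 10.31 and 11.07, within 0.76. Hpgds and Tbxas1 are made by macrophages among other cells. The 11 macrophage markers measured did not share one order. C1qa (11.22, 12.12 and 9.42), C1qb, C1qc and Mrc1 were lowest with Ccrl2- and highest with Ccrl2+. Adgre1 (9.24, 9.41 and 10.45), Itgam and Lyz2 were highest with Ccrl2-, and Csf1r (11.95, 11.13 and 10.85) and Fcgr1 in PBS. Ptprc lay at 9.06 to 9.18, and Cd163 was below the floor. The part of macrophage transcripts in the Hpgds and Tbxas1 values was not tested.

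Among the other prostanoid receptors, Ptgir, the prostacyclin receptor, lay at 4.48 in PBS, 4.44 with Ccrl2+ and 7.35 with Ccrl2-. It passed the floor on the CF Ccrl2- array alone, at least 0.8 above PBS. Tbxa2r, the thromboxane receptor, lay at 8.24, 7.47 and 7.1. The other 3 receptors of the list, Ptger3, Ptgdr and Ptgdr2, lay below the floor on all 6 arrays.

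Of 8 transport and breakdown genes, 2 were called higher and 1 lower with Ccrl2-, against 6.18% and 4.83% of all genes. With Ccrl2+ 4 were higher and 0 lower, against 4.87% and 6.13%. Slco3a1, an organic anion transporter that carries prostaglandins, lay at 10.48 in PBS, 11.38 with Ccrl2+ and 14.12 with Ccrl2-. It was 3.64 higher than PBS on the Ccrl2- array. Abcc4, which exports prostaglandins from cells, lay at 7.75, 8.95 and 8.81, higher with both secretomes. Akr1c14, a hydroxysteroid dehydrogenase, lay at 7.74, 9.32 and 6.96, and Aldh1a1, a retinaldehyde dehydrogenase, at 14.7, 16.7 and 13.47. These dehydrogenases were highest with Ccrl2+ and lowest with Ccrl2-, the order seen for Hpgd.

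**Figure D4:**
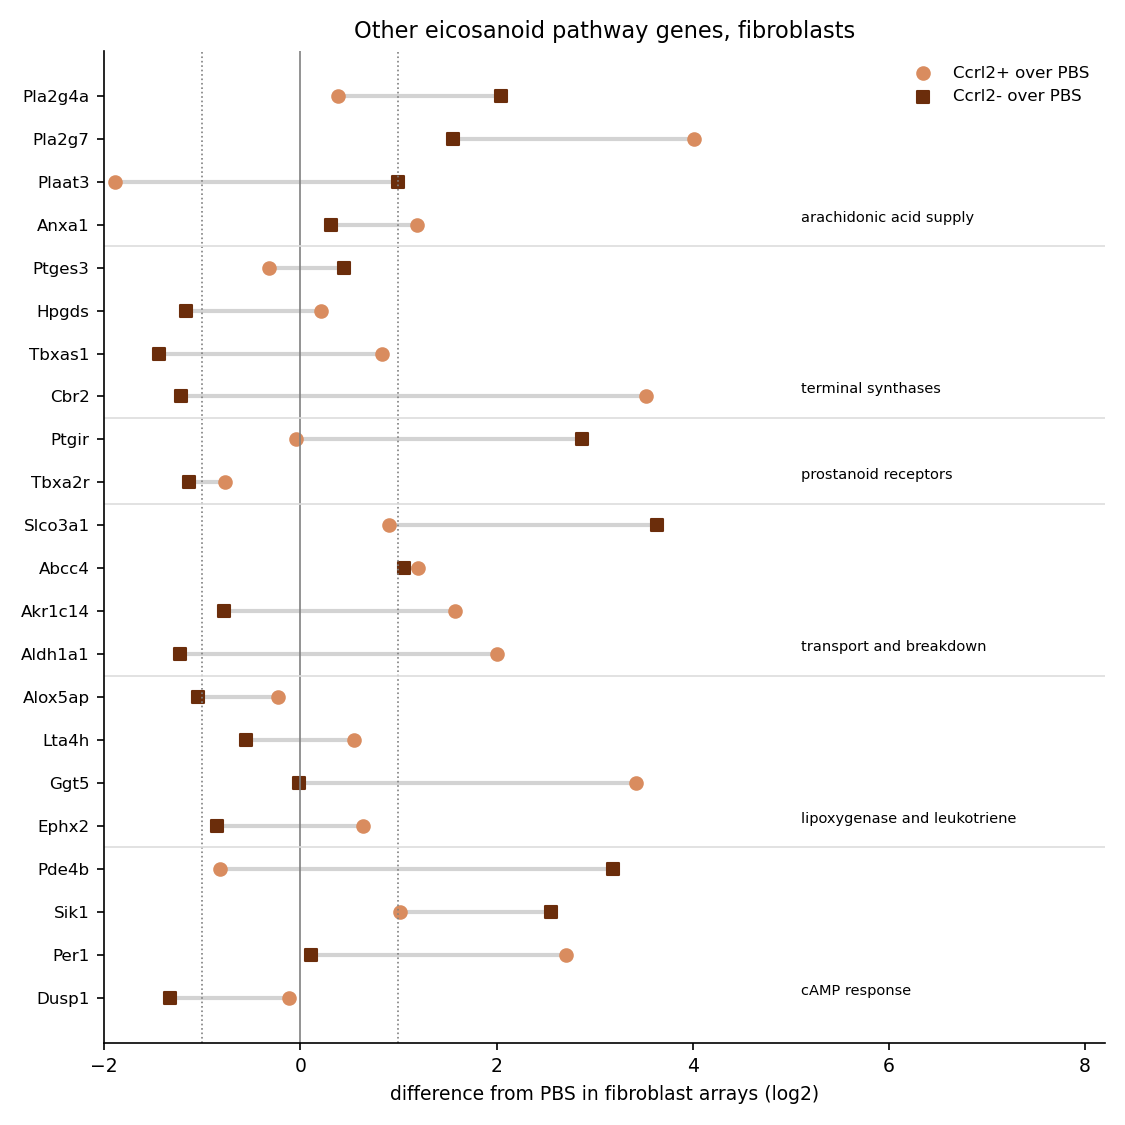
Difference from PBS (x axis, log2) in fibroblasts with the Ccrl2+ (circles) and Ccrl2- (squares) secretome for up to 4 genes of each pathway list (y axis, grouped by list) with the widest differences within fibroblasts; both series share the PBS array, and dotted lines mark 2-fold. Pla2g4a, Ptgir, Slco3a1, Pde4b and Sik1 are higher with Ccrl2-, and Pla2g7, Cbr2, Ggt5, Per1 and Aldh1a1 with Ccrl2+; differences of Pla2g7 and Ptgir are drawn as measured, although their PBS values lie below the floor.

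Lipoxygenase and leukotriene genes showed 1 of 6 past the floor lower and 0 higher with Ccrl2-, against 4.83% and 6.18% of all genes. The gene lower was Alox5ap, the 5-lipoxygenase activating protein gene, at 7.25 against 8.29. With Ccrl2+ 1 was higher and 0 lower, against 4.87% and 6.13% of all genes. It was Ggt5, a gamma-glutamyltransferase that converts leukotrienes, at 10.25 against 6.83. Lta4h, leukotriene A4 hydrolase, lay at 12.34 in PBS, 12.89 with Ccrl2+ and 11.79 with Ccrl2-. Ephx2, soluble epoxide hydrolase, lay at 9.03, 9.67 and 8.18. Alox5 and Alox15, lipoxygenases of leukocytes, were below the floor on all 6 arrays.

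Prostaglandin E2 and prostacyclin receptors of the EP4 and IP types raise cAMP, and genes of the cAMP response were read for that reason. With Ccrl2- 2 of 11 were higher and 1 lower, against 6.18% and 4.83% of all genes. Pde4b, a cAMP phosphodiesterase, lay at 9.92 in PBS, 9.1 with Ccrl2+ and 13.11 with Ccrl2-, and Sik1, a salt-inducible kinase, at 8.88, 9.9 and 11.43. Dusp1, a phosphatase of MAP kinases, was lower with Ccrl2- (13.33 against 14.66). Per1, a clock gene, was high with Ccrl2+ instead (2.71 above PBS, which lay at 7.29, as against 7.4 with Ccrl2-). Of the immediate cAMP targets, Nr4a1 (6.39 to 6.78, near the floor) and Nr4a2 (7.51 to 7.67) differed from PBS by at most 0.22 with either secretome, and Nr4a3 was below the floor on all 6 arrays. The list therefore held genes high on either array and genes that did not differ by 2-fold.

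Most listed genes known to induce Ptgs2 and Ptges were higher on the same fibroblast array. The list was chosen with results of these arrays known and so is no independent support. Of its 13 measured genes, 11 were called higher and 0 lower with Ccrl2-, against 6.18% and 4.83% of all genes. Their median difference was 2.65, and that of all genes past the floor -0.09. Il1a, Il1b, Tnf and Relb passed the floor on the CF Ccrl2- array alone, so they could only be called higher. The count and the median include these genes. Tlr4 (0.47) and Egr1 (0.98) were not called. With Ccrl2+ 1 of 9 was higher and 2 were lower (median -0.04), against 4.87% and 6.13% of all genes. Il1a, interleukin 1 alpha, lay at 3.46, 3.56 and 11.68 in PBS, Ccrl2+ and Ccrl2-, and Tnf at 5.04, 3.69 and 12.3. Il6 lay at 8.79, 6.03 and 13.67. These 3 genes, like Ptgs2 and Ptges, were highest on the Ccrl2- array. Il1a and Tnf passed the floor there alone, while Il6 also passed it in PBS.

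In cardiomyocytes the pathway lists stayed near their PBS values. With Ccrl2+ 0 of 46 genes past the floor were called, against 0.839% of all genes. With Ccrl2- 1 of 46 was called higher and 1 lower, against 0.746% and 0.786%. The gene higher was Fads2, a fatty acid desaturase of arachidonic acid synthesis, at 14.02 against 13.0, and the gene lower was Aloxe3, an epidermal lipoxygenase, at 5.5 against 6.76. Aloxe3 was called on its difference as measured, of which 0.21 lies above the floor. Hpgds was highest in PBS (11.25, with 10.34 for Ccrl2+ and 10.8 for Ccrl2-), as was the summed macrophage marker level (14.78, 13.81 and 14.25), and the part of macrophages in it was not tested. Pla2g4a lay at 9.34 to 9.38 and Slco3a1 at 12.73 to 12.78 on the 3 CM arrays, so neither showed the difference seen in fibroblasts. Between the cultures in PBS, 6 of 8 transport and breakdown genes were called lower in CF and 0 higher, against 16.9% and 13.9% of all genes, while Hpgd was higher in CF. Examples were Slco2a1, the prostaglandin uptake transporter (8.4 against 9.78), and Ptgr2, a prostaglandin reductase (9.77 against 11.44).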

How the data were processed

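Biotin-labelled cRNA was made from total RNA by the Affymetrix protocol, per the labels. The authors deposited log2 values per probe set, and the submitters' processing notes name Affymetrix Expression Console. Version, summary method and build were not given in the sources used here. Sorted values differ by at most 0.43 between the 6 arrays, so an overall normalization preceded deposit and would hide a shift shared by most genes. The values show no centring per gene.

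Of 28846 probe sets 19572 had a single symbol. For 55 symbols with several probe sets the one with the highest mean was used, leaving 19505 genes; every member had 1. The log2 values of 2 arrays were subtracted for each of 7 comparisons, with calls at 2-fold past the floor. No p-value was computed. Counting was checked on simulated arrays. Members, lists and naming rules were chosen with earlier results of these data known. Named were all members, up to 4 genes per list and culture with the widest differences, the 5 nearest genes of 3 members and defining markers. Further genes were named after their values were seen. Of the markers these were C1qa, C1qb, C1qc, Mrc1, Adgre1, Itgam, Csf1r, Fcgr1, Cd163, S100a8, S100a9, Cpa3, Tpsb2, Kit and Mcpt4. Msln, Upk1b, Lrrn4, Wt1, Bnc1, Krt19, Myoz2, Ryr2, Col1a2, Col3a1 and Tcf21 were also among them. The others were the receptors and lipoxygenases below the floor, Nr4a1, Nr4a2, Nr4a3, Ptgr2 and Tlr4. Motifs were also chosen after the values were seen, and the second NF-kB form was kept beside the first because only it matched Ptgs2. The alternatives tried were 1.5- and 3-fold thresholds, no floor, floors of 10.14 and 10.51 (the 75th percentile of named values and the 95th percentile of negative controls), quantile normalization, a loess trend (span 0.4) removed, the mean of probe sets, and values raised to the floor. Python 3.11.15, numpy 2.4.6, pandas 2.3.3, statsmodels 0.14.6 and matplotlib 3.10.9 were used.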

Additional observations from a re-analysis of the deposited data

How the results depend on the processing

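Ptgs2 and Ptges were called in fibroblasts under every alternative run, for Ccrl2- over PBS and for Ccrl2+ over Ccrl2-. The count of members called moved by over 1.5 times in 11 of 63 recomputed counts. At 1.5-fold it was 4 instead of 2 for CF Ccrl2- over PBS, 2 instead of 1 for CF Ccrl2+ over PBS, 6 instead of 3 for CF Ccrl2+ over Ccrl2-, 2 instead of 1 for CM Ccrl2- over PBS, 1 instead of 0 for CM Ccrl2+ over PBS and 3 instead of 0 for CM Ccrl2+ over Ccrl2-. It was 0 instead of 1 for CF Ccrl2+ over PBS (Ptger4) at 3-fold and with either higher floor, and 0 instead of 1 for CM Ccrl2- over PBS (Ptgds) at 3-fold and with the loess trend removed. With values raised to the floor, and with either higher floor, Ptger4 was not called for CF over CM in PBS. At 3-fold Hpgd was not called for CF Ccrl2+ over Ccrl2-. Single differences moved by at most 0.0975 under quantile normalization and 0.145 under loess, within 0.16. That is the median absolute difference of the closest pair of arrays, CM Ccrl2+ and CM Ccrl2-. It stood in for replicate spread in both cultures, although these arrays had different treatments and CF pairs correlated less. Raising values to the floor moved 8 of 40 differences by more than 0.16, and 0 called differences reversed. No paired analysis was possible because each group had 1 array. Signal near background limits Ptger1, Ptgfr, Ptger4 and Ptgs2 on every array but CF Ccrl2-, so its folds are bounds.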
